A study of Mus musculus with 4 samples.

Results

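Of the 41174 probes on the arrays, 16 belong to 10 genes that steer the choice between secretory and absorptive cells in the gut epithelium: the Notch receptors Notch1 and Notch2, their ligands Dll1, Dll4 and Jag1, the transcription factors Hes1, Atoh1, Gfi1 and Spdef, and the progenitor factor Sox9. A probe was taken where the name in the files, or the current symbol of its accession, is one of these 10. The samples were epithelial cells taken fresh from mouse small intestine. Total RNA from 2 samples of IKKb(EE)IEC mice and from 2 samples of their wild-type (WT) littermates was read on 1-colour Agilent arrays, 1 array a sample. IKKb(EE)IEC denotes an activated form of the kinase IKKb, an activator of NF-kB, placed in intestinal epithelial cells. The promoter that drives it, the age of the mice and how many animals make up a sample are not given in the sources used here. Biological replicates are stated in the series' design text.

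Notch signals between neighbouring cells. A ligand of the Delta or Jagged family on one cell leads to cleavage of the receptor on the next, and the freed receptor domain enters the nucleus, where it joins the DNA-binding protein Rbpj and switches on repressor genes of the Hes family. In the intestinal crypt, Hes1 holds down Atoh1. Cells with active Notch become absorptive, and cells that escape it express Atoh1 and Dll ligands and give goblet, Paneth and enteroendocrine cells.

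None of the 10 genes passed the test between genotypes. The values of Dll1, a ligand made by secretory precursors, and of Notch1 lay higher in IKKb(EE)IEC cells, and the other 6 members tested differed by less than 1 log2 unit. Outside the 10, Rbpj and the Delta-like gene Dlk1 rose, and Hes2 fell by 1 of its probes. A probe counts here as well above background on an array where at least 50% of its spots carry the scanner software's flag for that. Rbpj and Dlk1 were well above background on the IKKb(EE)IEC arrays alone. Signals are log2 of the processed intensity minus that of the array's 75th percentile, so that 0 is the 75th percentile, and every difference has WT subtracted from IKKb(EE)IEC, with a standard error (SE) from limma and n = 2 arrays a genotype.

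The members are dim genes on these arrays. Of the 16 probes, the arrays of IKKb(EE)IEC had 9 and 9 well above background and those of WT had 4 and 2. In all, 40.8% and 41.1% of spots were well above background in IKKb(EE)IEC, against 34.3% and 36.0% in WT. The 75th percentile itself was at an intensity of 94.6 and 107.8 in IKKb(EE)IEC and of 60.3 and 66.1 in WT. This sets a scale for small differences. The 23259 probes that were not well above background on any array had a median difference of -0.56 (quartiles -0.59 and -0.33), although before scaling their median difference was 0.11. The scaling took 0.68 log2 units off every difference between genotypes. Over the genes tested, arrays of different genotypes correlated at 0.937 to 0.947, the IKKb(EE)IEC pair at 0.994 and the WT pair at 0.978. All 4 arrays were on 1 slide, with WT in the first positions, so position and genotype cannot be told apart.

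The promoters of the genes the results turn on are shown with the matches to a short motif each for Rbpj and NF-kB. They are RefSeq windows of 300 bases on GRCm38.p6, from 250 bases before a gene's start to 50 after it, printed 5′ to 3′ on the gene's strand. Capitals mark TGGGAA, the core that Rbpj recognises, and GGG followed by any 5 bases and CC, a loose form of the NF-kB site, on either strand, and overlapping matches run together. Dll1 and Rbpj have 2 windows each in RefSeq's table, of which both are shown for Dll1 and the first for Rbpj.
Dll1, chr17:15375774-15376073, minus strand: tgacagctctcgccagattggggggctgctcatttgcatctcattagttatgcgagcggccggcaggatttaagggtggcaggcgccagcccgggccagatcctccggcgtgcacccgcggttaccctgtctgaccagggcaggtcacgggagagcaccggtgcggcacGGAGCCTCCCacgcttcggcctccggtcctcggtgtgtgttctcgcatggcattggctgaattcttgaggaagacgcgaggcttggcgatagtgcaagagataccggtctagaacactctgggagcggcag
Dll1, chr17:15376883-15377182, minus strand: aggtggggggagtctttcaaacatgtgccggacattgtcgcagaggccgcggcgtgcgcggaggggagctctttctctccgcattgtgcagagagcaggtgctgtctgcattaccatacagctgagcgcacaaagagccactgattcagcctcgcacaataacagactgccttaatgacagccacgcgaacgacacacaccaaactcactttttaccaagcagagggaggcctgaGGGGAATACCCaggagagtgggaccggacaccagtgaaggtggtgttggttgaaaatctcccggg
Notch1, chr2:26503773-26504072, minus strand: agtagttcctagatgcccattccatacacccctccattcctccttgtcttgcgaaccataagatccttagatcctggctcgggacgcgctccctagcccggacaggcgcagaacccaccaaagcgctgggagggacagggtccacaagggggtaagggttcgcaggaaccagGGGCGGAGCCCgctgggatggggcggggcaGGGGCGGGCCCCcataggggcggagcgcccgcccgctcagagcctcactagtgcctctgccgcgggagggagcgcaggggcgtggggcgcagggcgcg
Spdef, chr17:27728902-27729201, minus strand: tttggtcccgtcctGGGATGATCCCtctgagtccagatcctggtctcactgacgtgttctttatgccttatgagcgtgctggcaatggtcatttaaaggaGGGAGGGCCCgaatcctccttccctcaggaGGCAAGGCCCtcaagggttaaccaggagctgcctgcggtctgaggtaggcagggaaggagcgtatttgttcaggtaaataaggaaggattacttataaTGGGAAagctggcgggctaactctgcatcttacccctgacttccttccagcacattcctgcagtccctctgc
Rbpj, chr5:53590096-53590395, plus strand: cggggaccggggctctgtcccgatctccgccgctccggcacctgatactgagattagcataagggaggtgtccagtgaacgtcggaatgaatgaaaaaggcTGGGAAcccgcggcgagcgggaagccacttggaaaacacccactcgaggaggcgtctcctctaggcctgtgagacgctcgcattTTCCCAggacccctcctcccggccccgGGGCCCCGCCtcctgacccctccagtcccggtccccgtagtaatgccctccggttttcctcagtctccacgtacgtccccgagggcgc
Among the 8 members with a promoter in the table, Spdef alone held TGGGAA, a word found in 25.6% of all 32851 windows. The looser NF-kB form was in 7 of the 8, all but Atoh1, and in 50.8% of all windows. The E-box CANNTG was in 3 of the 8, those of Dll1, Jag1 and Gfi1, and in 72.3% of all windows. The Hes-type word CACNAG was in 5 of the 8 and in 42.5% of all windows. Members with 2 windows count once if either holds the word, and the matches describe letters and not binding. No window for Hes1 or Sox9 was used here.

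Of the 10 members, 8 passed the filter of at least 2 arrays well above background and entered the fit of 12437 genes. The limma test called 0 of these 8 at an adjusted p below 0.05, where it called 15.2% of all genes tested, 8.02% higher and 7.2% lower. At an unadjusted p below 0.05, Dll1 and Notch1 were higher and Dll4 was lower, which is 3 of 8, against 38.1% of all genes. The arrays of both genotypes did not overlap for 5 of 8 members, of which 3 were higher and 2 lower, and for 69.1% of all genes (28.3% higher and 40.8% lower). The 3 higher members, Dll1, Notch1 and Gfi1, passed the filter only through the IKKb(EE)IEC arrays, where they are high, so these counts are given as a description. Taken over both directions, these counts lie near the shares of the whole table or below them. The median difference of the 8 members was 0.08, and that of all genes tested was -0.12. A single gene of 2 against 2 arrays cannot go below a p of 0.333 in an exact permutation test. In such bulk samples, fewer cells of a type and less RNA per cell cannot be told apart.

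**Figure D1:**
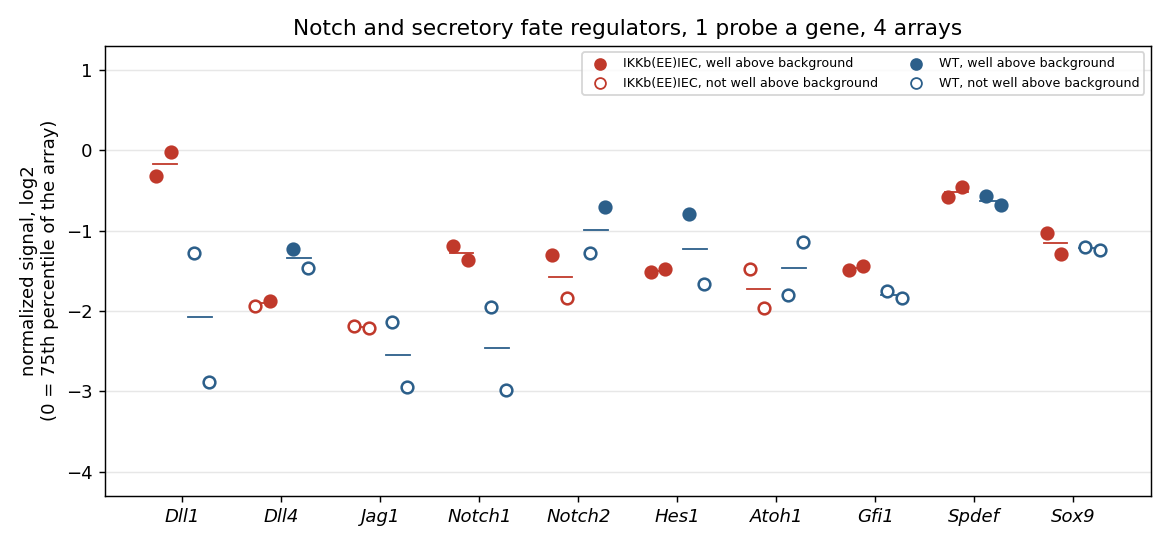
The normalized log2 signal (y axis, 0 is the 75th percentile of the array) of 1 probe for each of the 10 genes, with IKKb(EE)IEC arrays in red on the left and WT arrays in blue on the right, filled where the probe was well above background, with a line at each mean. The filled IKKb(EE)IEC points of Dll1, Notch1 and Gfi1 stand above open WT points, and Jag1 and Atoh1 have open points alone.

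Dll1, the Delta-like ligand of secretory precursors, had the largest difference among the members. Its probe (chromosome 17, 15072622 to 15072681, mm8) lies in 10 spots on each array. The means were -0.32 and -0.03 on the IKKb(EE)IEC arrays, against -1.28 and -2.88 on the WT arrays. Both IKKb(EE)IEC arrays were above both WT arrays, and the WT arrays were further apart from each other than the IKKb(EE)IEC arrays were. The spots did not overlap either. The lowest IKKb(EE)IEC spot was at -0.48 and the highest WT spot at -0.94. All 10 spots were above background on each IKKb(EE)IEC array, against 3 on WT replicate 1 and 0 on WT replicate 2, where 4 spots held a substituted value. The difference was 1.90 ± 0.52 (95% interval 0.61 to 3.20), and its adjusted p of 0.0615 by limma missed the threshold.

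As no WT array had the Dll1 probe well above background, the measured difference depends on values at the background. Set against the lowest signal that counted as well above background on the WT arrays, Dll1 was on average 2.23-fold higher in IKKb(EE)IEC. For such a floored figure, each array of the dimmer genotype takes its probe's own value or, if higher, the lowest value at which any probe was well above background. The average of these is set against that of the brighter genotype. These lowest values were -1.83 and -1.99 for IKKb(EE)IEC and -1.30 and -1.39 for WT. A floored figure holds for this scaling and this average of 2 arrays, and it is not a lower limit. The difference of Dll1 was 2.71 without WT replicate 1 and 1.10 without WT replicate 2, and passed in both of these fits (adjusted p by limma = 1.69e-06 and 0.00153). It did not pass without IKKb(EE)IEC replicate 1 or 2 (adjusted p by limma = 0.204 and 0.282). It was 0.56 in the authors' deposited value table, where it also passed (adjusted p by limma = 0.0411).

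**Figure D2:**
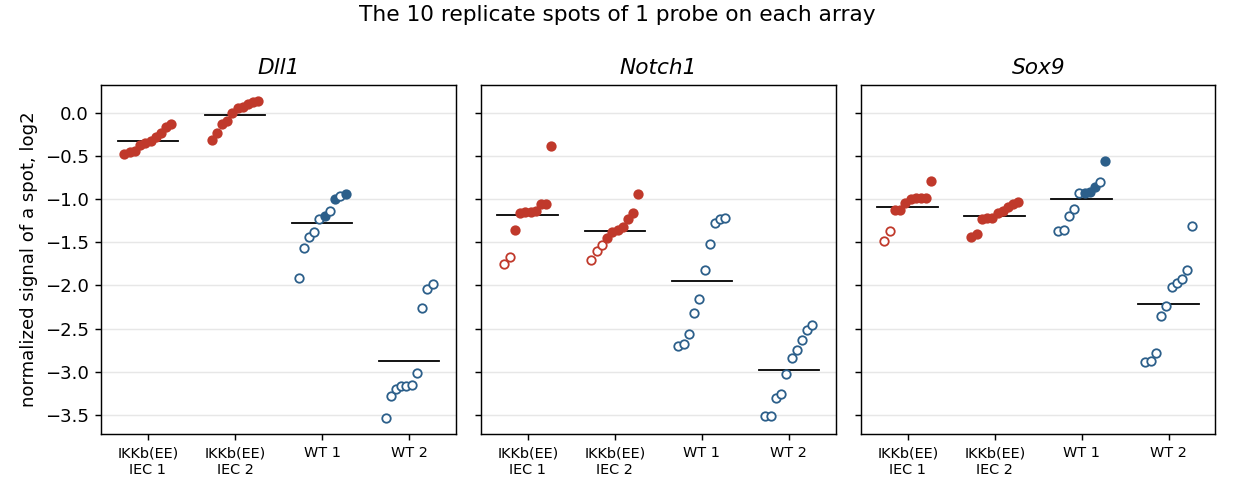
The normalized log2 signal of each of the 10 spots (y axis) of 1 probe of Dll1, Notch1 and Sox9 on the IKKb(EE)IEC arrays (red) and the WT arrays (blue), filled where the spot was above background, with a line at the mean. The spots of Dll1 separate by genotype without overlap, and for Sox9 the spots of WT replicate 2 lie below those of the other 3 arrays in most cases.

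Dll4 is the second Delta-like ligand of the crypt, and it acts together with Dll1 in keeping stem cells. It stood at -1.93 and -1.87 in IKKb(EE)IEC, against -1.23 and -1.46 in WT. Both IKKb(EE)IEC arrays were lower, with a difference of -0.56 ± 0.18 (adjusted p by limma = 0.0846). Without WT replicate 1 and 2 it was -0.44 and -0.67. The difference over all 4 arrays is the size of the median of the probes at background. The intensities before scaling were 24.8 and 29.5 in IKKb(EE)IEC and 25.7 and 24.03 in WT, and they overlapped. The probe was well above background on 1 array of each genotype. Jag1, the Jagged ligand, was not well above background on any array with either of its probes, and no difference is given for it.

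Notch1, the receptor through which most crypt Notch signalling runs together with Notch2, had means over 10 spots of -1.19 and -1.37 in IKKb(EE)IEC, against -1.95 and -2.98 in WT. The means did not overlap between genotypes, but single spots did, since the lowest IKKb(EE)IEC spot was at -1.76 and the highest WT spot at -1.22. Above background were 8 and 7 of the 10 spots in IKKb(EE)IEC and 0 and 0 in WT. The difference of 1.19 ± 0.35 (95% interval 0.30 to 2.07) missed the threshold (adjusted p by limma = 0.0748), and by the floored figure Notch1 was on average 1.05-fold higher. The difference was 1.70 and 0.67 without WT replicate 1 and 2, and 1.10 and 1.28 without IKKb(EE)IEC replicate 1 and 2. In the authors' deposited value table it was 0.17 and did not pass. The 10-spot probe lies at chromosome 2, 26281261 to 26281319, and the next probe abuts it at 26281319 to 26281378 (mm8). This second probe was below background on all 4 arrays, where it held substituted values, with a difference of -0.55.

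Notch2, the other receptor, had 3 probes, of which 1 passed the filter. It stood at -1.30 and -1.84 in IKKb(EE)IEC, against -1.28 and -0.70 in WT. The ranges touch closely without overlap, and the difference was -0.58 ± 0.29 (adjusted p by limma = 0.194). Without WT replicate 1 and 2 it was -0.87 and -0.29. Its intensities before scaling were 38.3 and 30.0 in IKKb(EE)IEC and 24.8 and 40.7 in WT, and they overlapped. The other probes were below background on all arrays, 1 of them with substituted values throughout, and carry no direction.

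Hes1, the Notch target that represses Atoh1, showed no separation between the genotypes. It stood at -1.52 and -1.48 in IKKb(EE)IEC, against -0.79 and -1.66 in WT (chromosome 16, 29985644 to 29985939, mm8). The WT arrays lay on both sides of the IKKb(EE)IEC arrays. Before scaling, the intensities of Hes1 were 33.1 and 38.6 in IKKb(EE)IEC and 34.8 and 20.9 in WT, and they overlapped. The difference was -0.27 ± 0.31 (95% interval -1.04 to 0.50, adjusted p by limma = 0.540). Without WT replicate 1 and 2 it was 0.16 and -0.71, so that 1 WT array set its sign.

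Atoh1, the factor that opens the secretory fate, was represented by 1 probe that was not well above background on any array. Its values were -1.48 and -1.97 in IKKb(EE)IEC and -1.80 and -1.14 in WT. They overlapped and carry no direction.

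Gfi1, which acts below Atoh1 in goblet and Paneth cells, was at -1.48 and -1.44 in IKKb(EE)IEC, against -1.75 and -1.84 in WT. The IKKb(EE)IEC arrays were higher and both well above background, and neither WT array was. The difference of 0.33 ± 0.16 did not pass (adjusted p by limma = 0.194). Before scaling, the intensities of Gfi1 were 33.8 and 39.6 in IKKb(EE)IEC and 17.9 and 18.5 in WT. Spdef, which drives the maturation of goblet and Paneth cells, was the member with a probe well above background on all 4 arrays. It stood at -0.59 and -0.46 in IKKb(EE)IEC, against -0.57 and -0.68 in WT. The arrays overlapped, and the difference of 0.10 ± 0.17 had a 95% interval of -0.32 to 0.53 (adjusted p by limma = 0.671). Before scaling, the intensities of Spdef were 63.1 and 78.5 in IKKb(EE)IEC and 40.5 and 41.3 in WT, without overlap.

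Sox9, a factor of crypt progenitors needed for Paneth cells, had 3 probes that passed the filter. The probe with the highest mean stood at -1.03 and -1.29 in IKKb(EE)IEC, against -1.21 and -1.24 in WT. It was well above background on both IKKb(EE)IEC arrays and on neither WT array. The groups overlapped, and the difference was 0.06 ± 0.18 (95% interval -0.39 to 0.51, adjusted p by limma = 0.811). Before scaling, the intensities of this probe were 46.4 and 44.1 in IKKb(EE)IEC and 26.1 and 28.1 in WT, without overlap. The 10-spot probe of Sox9 had means of -1.09 and -1.20 in IKKb(EE)IEC, against -1.003 and -2.22 in WT. The remaining probe gave -1.19 and -1.26 in IKKb(EE)IEC, against -0.86 and -2.06 in WT. These probes differed by 0.47 and 0.23, and both WT arrays straddled the IKKb(EE)IEC arrays.

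The WT arrays differed from each other at several members. Of the 10 member probes that passed the filter, 4 were at least 1 log2 unit lower on WT replicate 2 than on WT replicate 1: that of Dll1 (-1.60), the 10-spot probe of Notch1 (-1.03) and 2 probes of Sox9 (-1.21 and -1.20). Hes1 was lower by 0.87. Such a gap was present for 2.83% of all genes tested, counted by 1 probe a gene, and the median gap between the WT arrays was 0.05. Counted in that way, Dll1 and Notch1 had the gap, while the probe that stands for Sox9 differed by -0.03. The probes of Dll1 and Notch1 and the 10-spot probe of Sox9 were well above background on neither WT array. Their gaps thus rest on values at the background. On WT replicate 2, 4 of 10 spots each of Dll1 and Notch1 held substituted values. On the IKKb(EE)IEC arrays, 0 of these 10 probes were 1 unit or more apart, against 0.458% of all genes tested. Of 10 stem and progenitor genes tested, 7 were lower and 3 higher on WT replicate 2 than on WT replicate 1, with a median gap of -0.35, and 1 was lower by 1 unit or more. Of 17 other secretory factors tested, 10 were lower and 7 higher, with a median gap of -0.20, and 0 were lower by 1 unit or more. Whether the share of crypt cells differed between the WT samples was not tested.

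The rest of the Notch pathway was read from a list of 56 genes, 54 of them on the array. Of 32 that passed the filter, 3 rose, 1 fell and 28 did not pass, with a median difference of 0.30. The share of rises is 3 of 32, against 8.02% of all genes. Among these rises, Rbpj and Dlk1 passed the filter only through the IKKb(EE)IEC arrays, where they are high. The count is therefore given as a description. At an unadjusted p below 0.05 there were 11 higher and 3 lower among the 32, against 38.1% of all genes in either direction. Among the other ligands and receptors 1 gene was tested, since Dll3, Jag2, Notch3, Notch4, Dlk2 and Dner did not enter.

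Rbpj, the DNA-binding partner of the cleaved Notch receptor, rose. Its probe (chromosome 5, 53944135 to 53944194, mm8) stood at -0.13 and -0.52 in IKKb(EE)IEC, against -3.06 and -3.16 in WT. Both WT arrays were at the background and both IKKb(EE)IEC arrays well above it. The difference was 2.78 ± 0.20 (adjusted p by limma = 0.00294), and by the floored figure Rbpj was on average 2.02-fold higher. It rests on 1 probe. In the authors' deposited value table the difference was 0.55 and passed (adjusted p by limma = 0.0255).

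Dlk1, a Delta-like protein without the domain by which Delta ligands activate Notch, stood at 2.09 and 2.41 in IKKb(EE)IEC, against -3.55 and -3.67 in WT. Neither of its probes was well above background on the WT arrays. By the floored figure Dlk1 was on average 12.1-fold higher (measured difference 5.86 ± 0.19, adjusted p by limma = 0.000641), and the difference was 2.38 in the authors' deposited value table. Its second probe, on the same chromosome, was also higher, with a floored figure of 1.51-fold (adjusted p by limma = 0.0236). Ctbp1, a corepressor that Rbpj recruits where Notch is off, stood at 0.60 and 0.74 in IKKb(EE)IEC, against -0.38 and -0.39 in WT. It rose by 1.06 ± 0.17 (adjusted p by limma = 0.0200), and did not pass with 1 IKKb(EE)IEC array left out, whichever it was (adjusted p by limma = 0.164 and 0.221), or with the repaired background correction described under the alternatives (0.44, adjusted p by limma = 0.0539).

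Hes2, a Hes family gene, was the Notch list's fall. The probe with the higher mean (chromosome 4, 151006097 to 151006156, mm8) stood at 1.23 and 1.20 in IKKb(EE)IEC, against 2.92 and 2.85 in WT. The difference was -1.67 ± 0.16 (adjusted p by limma = 0.00506), and it missed the threshold without IKKb(EE)IEC replicate 1 and 2 (adjusted p by limma = 0.0657 and 0.0640). A second probe of Hes2 (151004000 to 151004147) stood at 1.60 and 1.48 in IKKb(EE)IEC, against 1.60 and 1.72 in WT. There the difference was -0.12 ± 0.17 (adjusted p by limma = 0.644), so the probes of Hes2 disagree. The other Hes genes tested, Hes5, Hes6 and Hes7, overlapped between genotypes, at 0.04, -0.07 and -0.24, and are named after their values were seen. Hes3, Hey1, Hey2, Heyl and Nrarp did not enter the test.

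**Figure D3:**
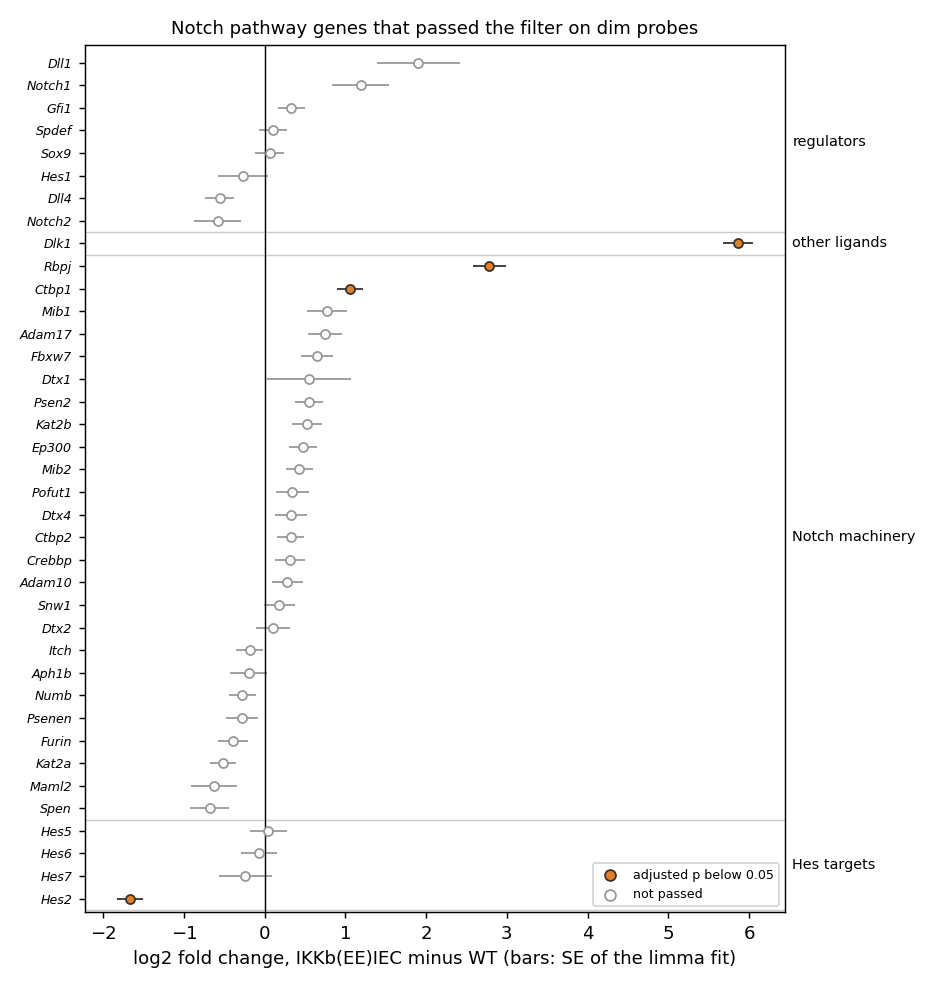
The log2 fold change (x axis, IKKb(EE)IEC minus WT) with its SE for the 8 regulators that passed the filter and for other tested genes of the Notch pathway, grouped by role, in orange where the adjusted p was below 0.05. Dlk1, Rbpj and Ctbp1 on the right and Hes2 on the left are the 4 that passed, while Dll1 and Notch1 lie to the right with wide errors.

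The machinery between ligand and target, which cuts, glycosylates, sorts and reads the receptor, had 27 genes tested. Rbpj and Ctbp1 rose and 25 did not pass, where 8.02% of all genes rose, and Rbpj passed the filter only through the IKKb(EE)IEC arrays. At an unadjusted p below 0.05 there were 10 higher and 2 lower, against 38.1% of all genes in either direction. Adam10, the protease gene for the cut that follows ligand binding, had a difference of 0.28 ± 0.19 (adjusted p by limma = 0.326). Its relative Adam17 had 0.75 ± 0.21 (adjusted p by limma = 0.0648). The ligand ubiquitinating enzyme gene Mib1 had 0.77 ± 0.25. Spen, a corepressor that binds Rbpj, had -0.68 ± 0.24. The gamma-secretase genes Psen2, Aph1b and Psenen had 0.55, -0.20 and -0.28. These genes were chosen after their values were seen, for their place in the pathway.

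Transcription factors of the secretory lineages other than the members were read from a list of 24, of which 17 passed the filter. The limma test called 0 of the 17, with 3 higher and 6 lower at an unadjusted p below 0.05, where 38.1% of all genes passed in either direction, and a median of -0.33. The smallest p values belonged to Id3, an inhibitor of basic helix-loop-helix factors, and Creb3l4, a factor of secretory cells. Id3 stood at 3.03 and 3.14 in IKKb(EE)IEC, against 3.79 and 3.70 in WT, a difference of -0.66 ± 0.17 (adjusted p by limma = 0.0536). Creb3l4 differed by -0.71 ± 0.19 (adjusted p by limma = 0.0610). Neurog3, the enteroendocrine factor below Atoh1, differed by -0.72 ± 0.22 (adjusted p by limma = 0.0774), and was chosen after its value was seen. The related inhibitor gene Id2, also chosen after its values were seen, had 2 probes at 0.62 and 0.99, of which the dimmer one passed when each probe was tested by itself (adjusted p by limma = 0.0239).

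The products of mature secretory cells were read beside the regulators. Over all genes tested, 7.2% fell and 8.02% rose. Of 10 genes tested on a list of Paneth cell products, 7 fell, 1 rose and 2 did not pass, with a median of -2.52. The falls were -3.76 for the ribonuclease gene Ang4, -3.21 for the lectin gene Itln1 and -2.74 for the lysozyme gene Lyz1. The alpha-defensin genes Defa22, Defa1 and Defa5 had -2.81, -2.77 and -2.30. The gene that rose is Guca2a, for the peptide guanylin, which other epithelial cells also make (1.38 ± 0.26), and it was chosen after its value was seen. The call of Lyz1 was lost with 1 IKKb(EE)IEC array left out, whichever it was, and that of Ang4 without IKKb(EE)IEC replicate 1. The summed linear signal of the list, in units of the 75th percentile, was 3882 and 5289 in IKKb(EE)IEC, against 21354 and 24478 in WT. Alpha-defensin genes are near copies, so their probes may share signal. Of 13 goblet cell genes, 4 fell, none rose and 9 did not pass, with a median of -0.55. Between the genotypes 2 of the 13 lay higher and 7 lower without overlap, and 4 overlapped. Over all genes tested, 28.3% lay higher and 40.8% lower. The mucin gene Muc2, chosen after its value was seen, overlapped between genotypes, at 0.28. The fall of Retnlb, a resistin-like goblet product, was the largest of the 4 falls. It stood at -2.23 and -2.32 in IKKb(EE)IEC, where it was not well above background, and at 4.07 and 0.85 in WT. By the floored figure Retnlb was on average 20.7-fold lower (adjusted p by limma = 0.0378), which is not a lower limit, as the WT arrays lay far apart. Its log2 difference was -3.13 and -6.35 without WT replicate 1 and 2. The falls of Spink4, Klk1 and Tpsg1 were -1.63, -1.28 and -0.91. All 4 of these calls were lost with 1 IKKb(EE)IEC array left out, whichever it was. Retnlb (-2.64) and Spink4 (-1.13) did not pass in the authors' deposited value table, nor Spink4 after quantile normalization (-1.15). In the same cells Spdef and Gfi1, which act in the making of both cell types, had the differences of 0.10 and 0.33 given before. Whether the regulators and the products differ in their response was not tested.

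**Figure D4:**
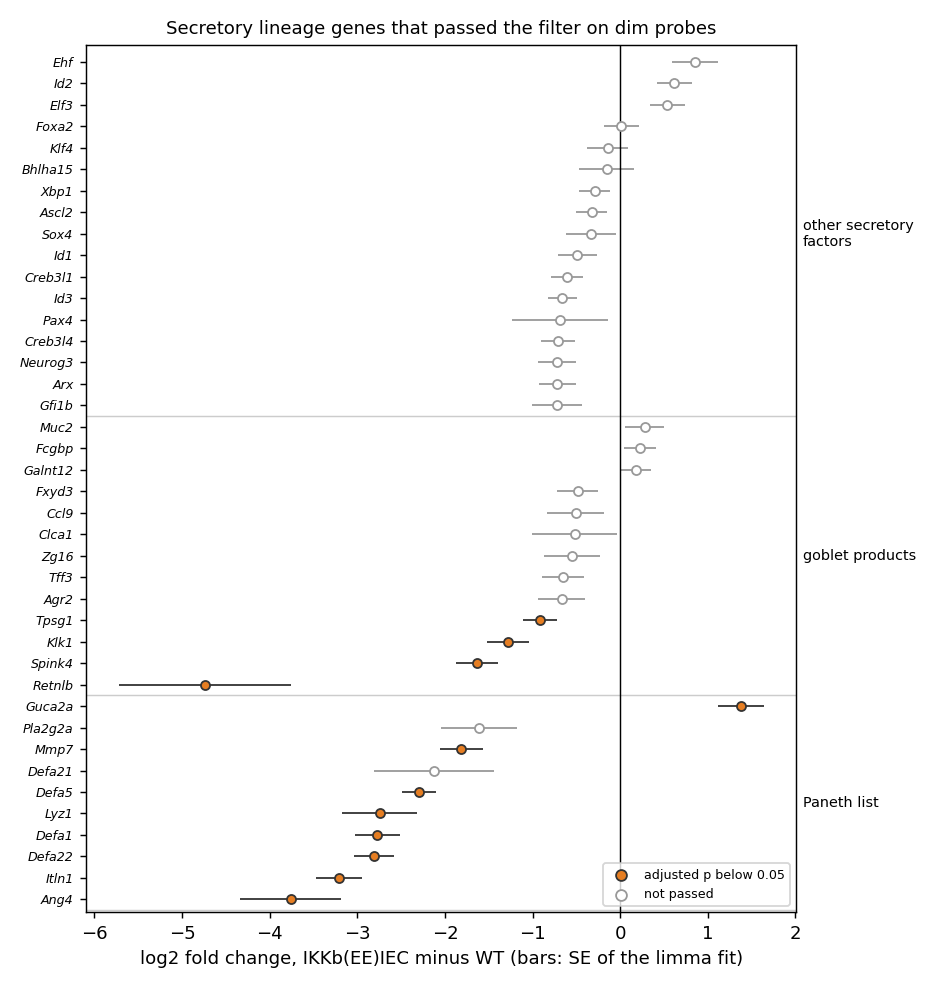
The log2 fold change (x axis, IKKb(EE)IEC minus WT) with its SE for 17 other secretory transcription factors, 13 goblet cell genes and 10 genes of the Paneth list, in orange where the adjusted p was below 0.05. No transcription factor is orange, while 4 goblet genes and 7 Paneth genes are orange on the left of 0, and Guca2a on the right.

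Markers of other cell types in the isolates are given beside these values, since Notch genes are also active in vessels and leukocytes. Of 8 endothelial genes, 2 were tested and did not pass, with a sum of 0.955 and 0.725 in IKKb(EE)IEC and of 0.899 and 1.25 in WT, and Pecam1, Cdh5, Kdr, Tek, Tie1 and Eng did not pass the filter. Of 12 leukocyte genes, 9 were tested, of which 2 rose, 1 fell and 6 did not pass. Over all genes tested, 8.02% rose and 7.2% fell. The macrophage gene Adgre1 rose, with a floored figure of 3.88-fold (adjusted p by limma = 0.00349), and the integrin gene Itgax rose by 1.89 ± 0.40. Adgre1 passed the filter only through the IKKb(EE)IEC arrays, where it is high. The macrophage genes Csf1r and Cd68, chosen after their values were seen, overlapped between genotypes, at 0.34 and 0.79. Lyz2, a near copy of the Paneth lysozyme gene, fell by 2.34 on the log2 scale. The calls of Itgax and Lyz2 were lost with 1 IKKb(EE)IEC array left out, whichever it was. The leukocyte sum was 308.6 and 309.9 in IKKb(EE)IEC, against 934 and 2440 in WT, and Lyz2 made up most of it. Without Lyz2 it was 15.5 and 13.6 in IKKb(EE)IEC, against 11.8 and 9.95 in WT, so that the direction turned. Of 11 stromal genes, 5 were tested and 1, Myh11, fell (-0.72, adjusted p by limma = 0.0484), a call that was lost in 10 of 16 alternatives, among them a median shift (-0.67) and the authors' deposited value table (-0.16). The part of these cells in the values of Dll1, Notch1 and Rbpj was not tested. The epithelial markers Epcam and Cdh1 were present at 3.95 and 3.78 on average in IKKb(EE)IEC and at 4.31 and 2.83 in WT, and neither passed.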

How the data were processed

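The deposited spot intensities are the processed signal of Agilent Feature Extraction 9.5.3.1, background-subtracted, with dim spots given a substituted value, per the file headers, and the other columns used are flags of the spots and the mean and background intensities. RNA (250 ng) was labelled with Cy3, per the labels' protocols. The authors' deposited value table holds linear intensities with column medians of 111.5 to 112, whose scaling method and background correction are not given in the sources used here. It was used as an alternative.

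Each array's 75th percentile over spots that are no controls was taken off the log2 signals, non-uniform spots (1 to 7 an array) were left out, and spots of a probe were averaged. Probes well above background on at least 2 of 4 arrays were kept (16394), and the one with the highest mean stood for its gene (12437 genes). Names follow RefSeq's table for 24375 probes matched by accession. The genotypes were fitted by lmFit and eBayes in limma 3.58.1 (R 4.3.3, two-sided, Benjamini-Hochberg over all genes, threshold 0.05). The code was checked on data simulated from the fitted model, with equal spread in both genotypes. Such data cannot test the unequal spread seen here. Of all genes tested, 5.26% were at least 1 log2 unit apart between the WT arrays, against 0.458% between the IKKb(EE)IEC arrays. The number of arrays limits the precision. Probe coordinates are those of the files (mm8).

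The members and lists were chosen with earlier results of these data known. All 10 members are named, from each other list the passing genes up to 6 by size, and at most 2 of smallest p if a list had none. Genes beyond this are said to be chosen after their values were seen. Some genes of the lists are counted but not reported by name here, nor drawn in the plots. Alternatives were another scaling, background correction or filter, the authors' value table, other probe rules, a replicate block and leaving out each array.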

Additional observations from a re-analysis of the deposited data

How the results depend on the processing

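Among the members, 0 were called higher and 0 lower, and these counts became 2 higher with a shift by the array median (Dll1 and Notch1, in a fit whose prior for the spread had infinite degrees of freedom, so that 1 spread served all genes) and 1 higher in the authors' value table (Dll1). Leaving out 1 array gave 0 to 2 higher and 0 to 2 lower. Every gain came without a WT array, in which case the spread came from the closer IKKb(EE)IEC pair alone and the lone WT array was assumed to vary alike. The difference of Hes1 lay between -0.71 and 0.16 with 1 array left out, and it turned without WT replicate 1. That of Sox9 lay between -0.068 and 0.20, and it turned without IKKb(EE)IEC replicate 1. Vwf, an endothelial gene at -0.17, was at 0.019 in the authors' table and between -0.59 and 0.24 without 1 array. For the other Notch genes, leaving out 1 array gave 2 to 13 higher and 0 to 4 lower, and no filter gave 2 lower. For the other secretory factors, 1 was higher with a median shift, with the mean over probes and with every probe on its own, 2 were lower in the authors' table and with a filter on all 4 arrays, and leaving out 1 array gave 0 to 3 higher and 0 to 5 lower. Over all genes, leaving out 1 array gave 165 to 2633 higher and 82 to 3542 lower, and no filter gave 501 higher and 342 lower. Higher genes made up 52.7% of calls, 63.2% with a median shift, 72.1% with the repaired normexp correction, 40% with a filter on all 4 arrays, 42.6% and 45.8% without WT replicate 1 and 2, and 66.8% and 68.4% without IKKb(EE)IEC replicate 1 and 2.

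Both normexp corrections called 0 genes in either direction, the Notch genes included, and left Dll1 at 0.38, Notch1 at 0.16 and Rbpj at 0.41. A repaired fit, with outlying low spots raised first, was chosen after seeing the data. It gave 5 other Notch genes higher, 1 secretory factor higher and 542 genes lower, with Dll1 at 0.51, Notch1 at 0.07 and Rbpj at 0.55. It turned Gfi1 to -0.086 and Sox9 to -0.050. The offset of 50 that normexp adds draws dim values together by construction. Leaving out population outlier spots, also chosen after seeing the data, kept the 8 members tested and the 32 other genes of the naming rule on their side of the threshold.

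With the replicate number as a block, 0 members, 3 other Notch genes higher and 1 lower were called, and 587 genes were lower over all genes. Tpsg1 (adjusted p by limma = 0.0520) and Myh11 lost their calls. The numbers do not pair the samples by label, and the differences between replicates correlated at 0.108 between genotypes. Of the 24 genes of the naming rule with a call, 16 lost it with 1 IKKb(EE)IEC array left out, whichever it was and 1 without 1 of them. Signal over background limits the members: with a filter on all 4 arrays, 1 member (Spdef) was left.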

Other observations

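Lists of other epithelial cells were read beside the secretory ones. Over all genes tested, 8.02% rose and 7.2% fell by limma. Of 12 enteroendocrine hormone and granule genes, 1 fell, Nts for neurotensin (-1.27 ± 0.19, adjusted p by limma = 0.0178), and 11 did not pass, with a median of -0.14. Between the genotypes 3 of the 12 lay higher and 5 lower without overlap, and 4 overlapped. Of all genes tested, 28.3% lay higher and 40.8% lower without overlap. Of 10 stem and progenitor genes tested, Cd44 rose by 1.83 ± 0.38 (adjusted p by limma = 0.0379) and 9 did not pass, with a median of 0.06. Of 5 tuft cell genes tested 0 passed by limma. At an unadjusted p below 0.05, where 38.1% of all genes passed in either direction, Ptgs1 alone was higher (1.72 ± 0.49) and Alox5ap alone lower (-1.34 ± 0.45). Of 13 absorptive genes, Anpep rose by 1.10 and Fabp2, Fabp1 and Lct fell by 1.56, 1.35 and 1.26 on the log2 scale, with a median of -0.08. The calls of Nts, Cd44, Anpep, Fabp2, Fabp1 and Lct were all lost with 1 IKKb(EE)IEC array left out, whichever it was, and those of Fabp2 (-0.32), Fabp1 (-0.51) and Lct (-1.01) after quantile normalization. Fabp1 (-0.80) and Lct (-0.92) also did not pass in the authors' value table.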
